A study of Arabidopsis thaliana with 21 samples.

Results

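The arrays described here, 6 in all, measured Arabidopsis thaliana plants: 3 were of the triple mutant camta1/2/3 and 3 were of the wild type (WT), both kept at 22 °C and never given cold. They were chosen by their titles from the 21 arrays of the study, and all 22746 probe sets other than the array's controls were compared between them. Both groups were of the Col-0 ecotype, were grown on soil under a 12 h photoperiod for 3 weeks, and gave RNA from the whole of the plant above the soil. The labels give the mutant as camta1/2/3 and name no alleles. The other arrays, 3 per group, were of the double mutants camta2/3, camta1/3 and camta1/2 at 22 °C, and of camta1/2/3 and WT after 24 h at 4 °C. Nothing in the labels says that replicates came from separate sowings, so the p-values measure the spread between these samples.

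CAMTA proteins are calmodulin-binding transcription activators, a family of plant and animal factors that bind calcium-loaded calmodulin and a short CGCG-containing element in promoters. In Arabidopsis leaves CAMTA3 is best known for holding defence genes down in unstressed plants, where its loss leads to salicylic acid build-up and small rosettes, and the family is also known for switching on early cold-response genes. The comparison asks what the loss of CAMTA1, CAMTA2 and CAMTA3 does to transcript levels in the absence of cold.

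Values are log2 levels, as deposited, and a difference is camta1/2/3 minus WT, so 1 is a doubling. A probe set was called where limma's p-value, adjusted by the Benjamini-Hochberg method over all 22746, was under 0.05. Standard errors (SE) come from the same fit. The values came without detection calls and bottom out at a floor that differs between probe sets, for many between about 2 and 3 and for some higher. A difference from a group at its floor is only a lower bound. None of the 3 mutated genes had a probe set named here, and the genotypes were not checked on the arrays. In whole aerial parts, fewer cells of a type and less RNA per cell cannot be told apart.

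At 22 °C 5342 probe sets (23.5%) were called between camta1/2/3 and WT. Of these, 2521 (11.1%) were higher and 2821 (12.4%) were lower in the mutant. Differences of 2-fold or more were reached by 1176 that were higher (5.17%) and 973 that were lower (4.28%). Large changes were more often rises: 361 probe sets were at least 4-fold higher and 125 at least 4-fold lower, at 8-fold the numbers were 100 and 30, and at 16-fold 20 and 8. Among the 13356 named genes, each given by 1 probe set, 2733 (20.5%) were called: 9.6% of the 13356 were higher and 10.9% lower. The largest called differences of all, 5.32 and -7.37, belonged to probe sets with no gene named here, as did 2599 of the calls.

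Where a gene stood in expression was related to which way it moved. Among probe sets with a mean level of 10 or more, 9.11% were called higher and 26.5% lower. Between 6 and 8 the shares were 18.8% and 18.6%, and under 3 they were 1.28% and 1.72%. The probe sets that were at least 2-fold higher had a median level of 7.17 in camta1/2/3 and 5.30 in WT, and 21.4% of them were under 4 in WT. Those at least 2-fold lower had medians of 5.90 in camta1/2/3 and 7.45 in WT. Across chromosomes 1 to 5, between 8.9% and 10.3% of the measured named genes were called higher and up to 11.6% lower.

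**Figure D1:**
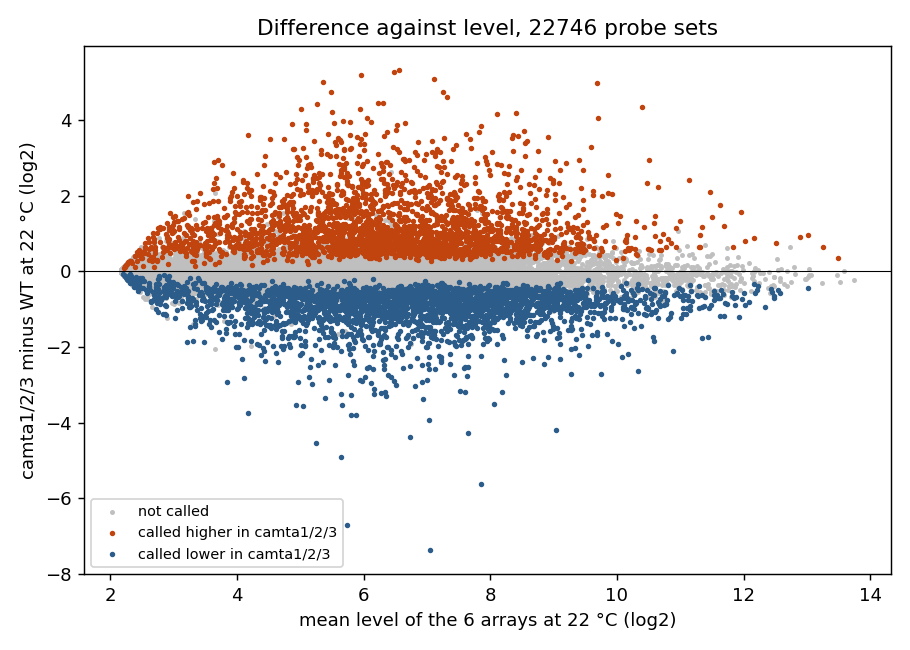
Each point is 1 of 22746 probe sets. The horizontal axis is its mean log2 level over the 6 arrays at 22 °C and the vertical axis camta1/2/3 minus WT (log2). Orange points were called higher in camta1/2/3 (2521) and blue points lower (2821). The extreme rises outnumber the extreme falls, while blue prevails among called points at levels over 10.

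The first principal component of the 6 arrays held 74.6% of the variance and parted the genotypes. Replicate 1 of WT lay nearest the mutants, and it alone was the WT array closest to camta1/2/3 in 50.9% of the higher and 49.1% of the lower calls. Without WT replicate 1, 5134 probe sets were called. Replicate 2 of camta1/2/3 stood apart on the second component, at -32.1 against 14.2 and 13.4 for replicates 1 and 3. That component held 9.46% of the variance. The array weight from limma for camta1/2/3 replicate 2 was 0.384, the lowest of the 6 arrays. Without that array 4751 probe sets were called. Actin control probe sets at the 3′ end read higher than those at the 5′ end, a gap that widens in degraded RNA, by 2.96, 3.00 and 2.75 in camta1/2/3, against 2.15, 2.46 and 2.07 in WT. The gap was wider in camta1/2/3 by 0.68 on average (two-sided exact permutation test, p = 0.1, the smallest that 3 against 3 allow). A fit that allows for this gap called 4565 probe sets. A fit of these 6 arrays alone, which has fewer samples to estimate the spread, called 3252. There 40 of the 138 called genes examined one by one missed the threshold, with adjusted p from 0.0509 to 0.262. Of those described below, LHCB4.2 (0.22), EXLB1 (0.215), MYC3 (0.213), BZIP60 (0.194), UGT74B1 (0.181), COR15B (0.171), GLR3.6 (0.157) and AT3G15460 (0.143) had an adjusted p over 0.1 in that fit. STZ, PSAN, PSBY, ATPC1, HEME2, THI2.1, CML37, EXPB3, AUR1, BZIP28, ECS1, AT5G03350, WRKY53 and CHI also missed, with values from 0.0509 to 0.0872.

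The 15 largest rises among named genes ran from 3.50 to 5.18. Only 3 of them carry a symbol in the annotation used here: CCOAMT, SBT3.3 and CHI. CCOAMT (AT1G67980), a caffeoyl-CoA methyltransferase gene of the pathway that makes lignin precursors, was at 8.78, 8.17 and 8.69 in camta1/2/3, against 3.40, 3.45 and 3.24 in WT. The groups were 36.3-fold apart (log2 difference 5.18, SE 0.37, adjusted p = 3.42e-07). AT3G28510 was at 7.89, 7.46 and 8.22 in camta1/2/3, and all 3 WT arrays stood at the floor value of 2.85. AT2G44240 showed the same kind of step, with 7.48, 7.99 and 8.13 in camta1/2/3 and 3.12 on each WT array. For both, the differences of 5.01 and 4.75 are therefore lower bounds.

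SBT3.3 (AT1G32960), a subtilisin-like protease known for priming immune responses, was at 7.55, 7.75 and 7.72 in camta1/2/3, against 4.97, 3.10 and 3.01 in WT (3.98, SE 0.60, adjusted p = 0.000174). CHI (AT2G43570), annotated as a putative chitinase, was at 9.61, 9.55 and 9.82 in camta1/2/3, against 8.0, 5.61 and 4.32 in WT (3.68, SE 0.66, adjusted p = 0.000734). Both mutant groups were tight, and in both genes WT replicate 1 was the high one. Without that array the CHI difference was 4.70, and in a fit of the 6 arrays alone its adjusted p was 0.0872. Replicate 1 was the lone WT array nearest to camta1/2/3 in 10 of the 15 largest rises.

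AT1G10340 was at 9.56, 9.64 and 9.65 in camta1/2/3, against 5.61, 4.63 and 4.83 in WT. AT3G18250 reached 10.65, 10.25 and 10.57 in camta1/2/3, with 6.92, 5.93 and 6.08 in WT. In these genes the mutant arrays lay close together while the genotypes were 24.1-fold and 18.1-fold apart (differences of 4.59 and 4.18). AT1G51890, AT4G18250, AT3G48640, AT3G60470, AT4G00700, AT1G13470, AT3G60420 and AT3G47480 made up the rest, at 3.50 to 4.43.

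The 15 largest falls ran to -5.62. AT1G66100 was at 5.92, 3.11 and 6.12 in camta1/2/3, against 11.37, 10.55 and 10.09 in WT (SE 0.72, adjusted p = 4.8e-05). It was among the abundant transcripts of WT and 49.2-fold lower in the mutant, where replicate 2 lay far below replicates 1 and 3. With 1 array left out, the smallest fall was 4.65. AT4G17470 was at 2.99, 3.29 and 3.28 in camta1/2/3, which is near the floor, and at 9.42, 8.13 and 6.72 in WT. AT3G28220 was at 5.45, 4.72 and 6.38 in camta1/2/3, with 10.63, 9.92 and 8.81 in WT. The choice of these genes required groups that do not overlap. Their WT arrays were themselves spread over more than 1 log2 unit.

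Only COR15A, TBL26 and THI2.2 carry a symbol among the 15. TBL26 (AT4G01080) belongs to the trichome birefringence-like family, whose studied members acetylate wall polysaccharides. It was at 2.23, 2.36 and 2.31 in camta1/2/3, against 6.67, 6.12 and 5.38 in WT (-3.76, SE 0.27, adjusted p = 3.5e-07), a drop to the floor. THI2.2 (AT5G36910), a gene for a thionin, a small antimicrobial peptide, was at 4.56, 4.69 and 4.78 in camta1/2/3, with 7.55, 7.64 and 8.48 in WT (-3.21, SE 0.35, adjusted p = 1.2e-05). AT2G43550 was at 6.23, 6.29 and 6.38 in camta1/2/3 and 10.21, 9.77 and 9.45 in WT. AT3G48460, AT1G31690, AT2G39850, AT1G07440, AT4G24350, AT4G02850, AT5G59130 and AT3G26960 fell by 3.18 to 3.80.

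**Figure D2:**
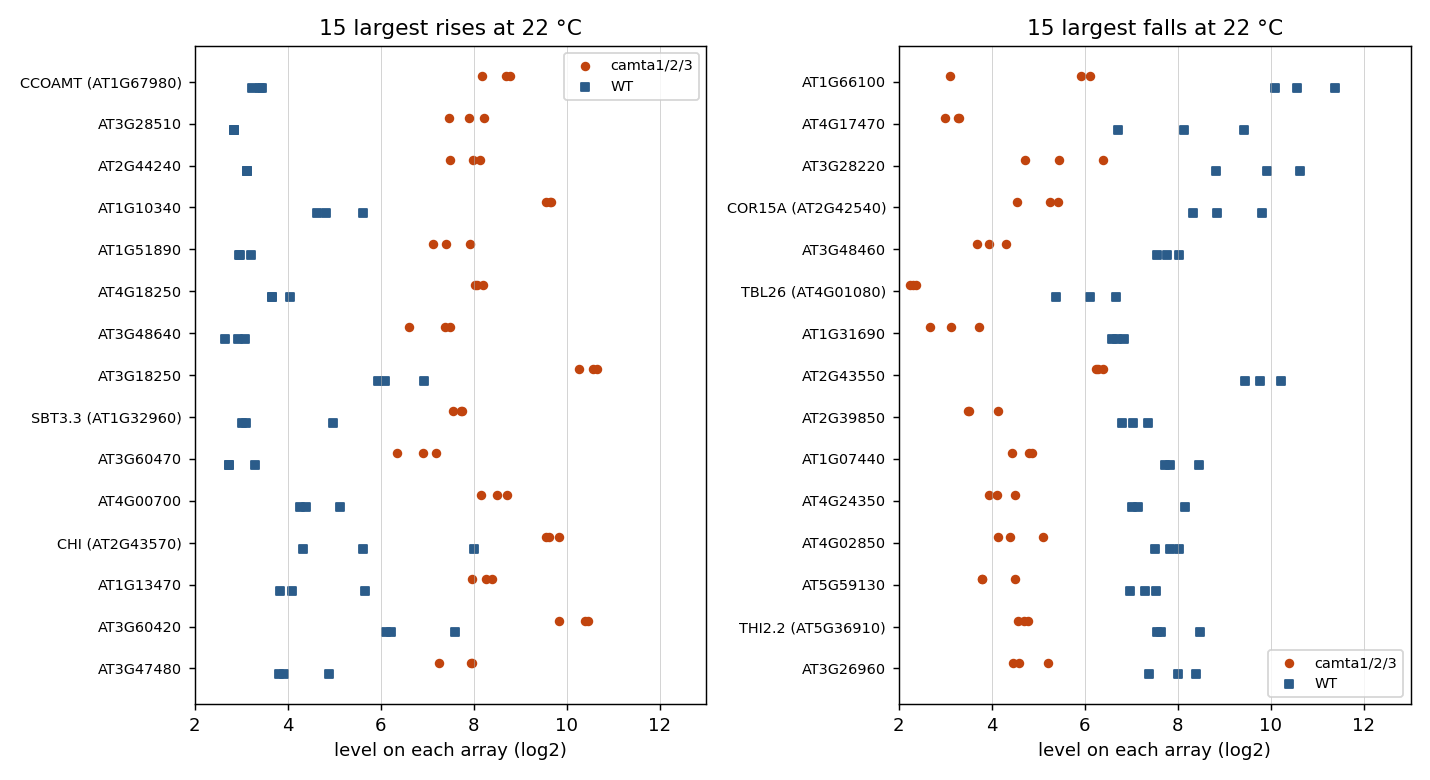
Log2 levels on each of the 6 arrays for the 15 named genes with the largest rises (left panel) and the 15 with the largest falls (right panel). Orange circles are camta1/2/3 and blue squares WT. No gene's groups overlap, which the choice of these genes required, and in CHI, SBT3.3 and AT1G13470 a single WT array lies well to the right of the other two.

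In the lists below a gene counts as measured where a probe set was named for it, which held for 124 of 898 list loci. The other loci could not be counted. Genes of pattern-triggered immunity, the response to conserved microbial molecules, had 8 of 38 loci measured, and these leaned upwards. Of the 8, 5 rose (62.5%, against 11.1% of all probe sets and 9.6% of named genes) and none fell. Their median difference was 1.30, against a median of 0.0 over all probe sets. BIK1 (AT2G39660), a cytoplasmic kinase that relays signals from immune receptors, was at 7.37, 7.20 and 7.55 in camta1/2/3, against 5.45, 5.15 and 5.35 in WT (2.06, SE 0.10, adjusted p = 3.71e-08). WRKY22 (AT4G01250), a factor that acts below the flagellin receptor, was at 4.09, 4.53 and 3.80 in camta1/2/3, with 2.93, 2.84 and 2.77 in WT. So a kinase with a steady WT level and a factor near the floor in WT both rose, by 4.16-fold and 2.45-fold.

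PUB24 (AT3G11840), a ubiquitin ligase that damps these responses, rose by 1.30, to 4.35 ± 0.34 in camta1/2/3 against 3.05 ± 0.23 in WT (SD, n = 3). Its relatives did not pass: PUB23 was at 6.42 ± 0.14 in camta1/2/3 and 5.54 ± 0.17 in WT (adjusted p = 0.0751), and PUB22 was at the floor in both. The receptor gene EFR was at 3.56 ± 0.22 in camta1/2/3 and 3.13 ± 0.23 in WT (adjusted p = 0.118). The count of 5 stayed the same when any 1 array was left out.

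Of 7 measured WRKY factors 4 rose (57.1%, against 9.6% of named genes) and none fell. WRKY22 and WRKY53 are also among the immunity genes that rose, so these counts share members. WRKY53 (AT4G23810), a regulator of leaf senescence and defence, was at 7.28, 7.20 and 7.43 in camta1/2/3, against 5.66, 3.83 and 2.76 in WT (3.22, SE 0.68, adjusted p = 0.00265). The WT arrays of this gene were scattered over almost 3 log2 units, and in the fit of 6 arrays its adjusted p was 0.0677. WRKY6 (AT1G62300), also tied to senescence, was at 7.15, 6.87 and 7.07 in camta1/2/3, with 5.30, 4.13 and 4.08 in WT. WRKY47 (AT4G01720) rose by 2.00, to 6.39 ± 0.07 in camta1/2/3 against 4.39 ± 0.34 in WT.

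Few genes of salicylic acid, the hormone of defence against biotrophs, had a probe set named here. These were 2 of 28 listed loci of its synthesis and control and 1 of 21 of its response. SAG101 (AT5G14930), a partner of the immune regulator EDS1, was at 6.15, 5.59 and 6.51 in camta1/2/3, against 4.81, 4.42 and 4.53 in WT (1.5, SE 0.26, adjusted p = 0.000583). GRX480 (AT1G28480), a glutaredoxin gene induced by salicylic acid, was at 7.82, 7.27 and 7.49 in camta1/2/3, with 6.31, 5.46 and 5.17 in WT (1.88, SE 0.35, adjusted p = 0.001). Both genes were higher on every mutant array than on any WT array, as were 2414 of the 2521 probe sets called higher. BSMT1, which methylates salicylic acid, stood at 2.28 on all mutant arrays and at 3.51 ± 1.15 in WT (adjusted p = 0.185). UGT76B1, a glycosyltransferase of the systemic resistance signal, was at 5.29 ± 0.52 in camta1/2/3 and 4.85 ± 0.42 in WT (adjusted p = 0.539).

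Genes of jasmonate and ethylene moved both ways, with 2 of 6 higher and 2 lower (33.3% each, against 9.6% and 10.9% of named genes). PDF1.2 (AT5G44420), the defensin gene most used as a marker of the joint jasmonate and ethylene response, was at 4.15, 3.89 and 3.63 in camta1/2/3, against 6.79, 5.39 and 6.09 in WT (-2.20, SE 0.57, adjusted p = 0.0098). Its near copy PDF1.2b was at 6.20 ± 0.77 in camta1/2/3 and 6.70 ± 0.56 in WT and did not pass, and probes of such copies can share signal. EIN3 (AT3G20770), the master factor of ethylene signalling, rose by 0.86, to 8.67 ± 0.21 in camta1/2/3 against 7.82 ± 0.19 in WT. The thionin gene THI2.1 fell to 3.43 on all mutant arrays, against 3.84 ± 0.20 in WT. The equal values may mark its floor, so this fall may be a lower bound. MYC3 rose by 0.56, but its adjusted p of 0.0471 was 0.0515 to 0.213 in 12 of the other fits.

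Calcium genes are of interest because CAMTA proteins read calcium through calmodulin. Of 8 measured members 4 rose (50%, against 9.6% of named genes) and 1 fell. CML41 (AT3G50770), a calmodulin-like protein gene, was at 5.58, 4.72 and 5.43 in camta1/2/3, against 3.18, 2.42 and 2.33 in WT (2.60, SE 0.33, adjusted p = 4.82e-05). GLR2.7 (AT2G29120), a glutamate receptor-like ion channel gene, was at 6.78, 6.39 and 7.01 in camta1/2/3, with 4.75, 4.33 and 4.21 in WT (2.30, SE 0.25, adjusted p = 1.08e-05). CML43 and CML37 rose by 1.33 and 1.13, with WT levels near the floor (2.41 ± 0.32 and 3.03 ± 0.39). The members did not move as one: CML38, CML42 and GLR3.3 did not pass, and GLR3.6 fell by 0.78, a call lost without replicate 2 of WT (adjusted p = 0.071) and without replicate 1 of camta1/2/3 (adjusted p = 0.0573).

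Of 6 measured genes of senescence 4 rose (66.7%, against 9.6% of named genes) and none fell, and WRKY53 and WRKY6 are among them. The other risers encode ATG8 proteins, the ubiquitin-like tags that coat autophagosomes. ATG8E (AT2G45170) was at 8.18, 7.05 and 7.52 in camta1/2/3, against 6.08, 5.50 and 5.92 in WT (1.75, SE 0.28, adjusted p = 0.000315). ATG8B (AT4G04620) was at 7.35, 7.59 and 7.34 in camta1/2/3, with 5.88, 5.78 and 5.51 in WT (1.70, SE 0.23, adjusted p = 8.37e-05). ATG8H was at 6.21 ± 0.31 in camta1/2/3 and 5.71 ± 0.39 in WT (adjusted p = 0.233), and the senescence marker SAG29 stood at about 3.5 in both genotypes. Members of the ATG8 family therefore differed in whether they passed.

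In the endoplasmic reticulum, where secreted proteins fold, 4 of 5 measured genes rose (80.0%, against 9.6% of named genes). ATERDJ3B (AT3G62600), a co-chaperone gene, was at 9.65, 9.76 and 10.03 in camta1/2/3, against 8.89, 8.44 and 8.60 in WT (1.17, SE 0.20, adjusted p = 0.000491). The other risers were the 3 stress-sensing bZIP factor genes: BZIP60 by 1.33, BZIP17 by 0.99 and BZIP28 by 0.86. BZIP17 was at 6.61 ± 0.13 in camta1/2/3 and 5.62 ± 0.24 in WT, whereas the groups of BZIP60 overlapped, with 8.74, 7.31 and 8.69 in camta1/2/3 and 7.53, 6.70 and 6.53 in WT. Between 2 and 4 of the genes were called when 1 array was left out (2 without WT replicate 2 and 2 without camta1/2/3 replicate 3), and 2 in the fit of 6 arrays. The calreticulin gene CRT1b was at 10.35 ± 0.19 in camta1/2/3 and 10.12 ± 0.09 in WT and did not pass.

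Auxin-conjugating enzymes of the GH3 family, which join auxin to amino acids, rose: WES1 (AT4G27260), also called GH3.5, was at 7.41, 6.62 and 6.62 in camta1/2/3, against 4.53, 4.57 and 4.01 in WT (2.51, SE 0.34, adjusted p = 7.64e-05). GH3.3 (AT2G23170) was at 6.79, 6.62 and 7.14 in camta1/2/3, with 4.91, 4.98 and 4.94 in WT (1.91, SE 0.24, adjusted p = 4.47e-05). Both are early auxin-induced genes. Of the SAUR and IAA genes only IAA18, IAA20, IAA29, IAA30, IAA31, IAA33 and IAA34 were measured. None of these 7 was called by limma (0 at an unadjusted p under 0.05), and IAA29, IAA30, IAA31 and IAA34 stood at the floor in both genotypes. The gibberellin receptor gene GID1B rose by 1.02 (adjusted p = 0.00104), while GID1A (adjusted p = 0.0555) and GID1C (adjusted p = 0.0742) did not pass. ARR15 (AT1G74890), a cytokinin-induced response regulator that damps the signal, fell to 3.97 ± 0.60 in camta1/2/3, against 5.68 ± 0.33 in WT (-1.71, SE 0.24, adjusted p = 8.61e-05).

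Single genes of other lists also rose. STZ (AT1G27730), a zinc finger repressor gene induced by many stresses, was at 8.26, 7.48 and 7.56 in camta1/2/3, against 6.35, 5.25 and 4.70 in WT (2.33, SE 0.42, adjusted p = 0.000738). GI (AT1G22770), a clock gene, was at 9.73, 9.48 and 9.65 in camta1/2/3, with 8.62, 8.47 and 8.80 in WT (0.99, SE 0.12, adjusted p = 3.74e-05). Among the most abundant risers, GAMMA-VPE (AT4G32940), a vacuolar protease gene tied to cell death and senescence, was at 12.66, 12.30 and 12.59 in camta1/2/3, against 10.50, 10.45 and 10.32 in WT. That is 4.27-fold at a level few transcripts reach (2.09, SE 0.14, adjusted p = 2.33e-07). AT5G03350 was at 12.65, 12.33 and 12.54 in camta1/2/3 and 11.66, 10.54 and 10.05 in WT. AT2G25510 and ECS1 were higher still and rose by 0.95 and 0.91, the call on ECS1 being lost in 4 of the 6 fits without 1 array (adjusted p up to 0.0928).

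Counts for enzyme families of secondary metabolism are set against all named genes, of which 9.6% were higher and 10.9% lower. Of 24 cytochrome P450 genes 5 rose (20.8%) and 2 fell (8.33%). CYP71B23 rose by 2.42, to 7.89 ± 0.54 in camta1/2/3 against 5.47 ± 0.71 in WT, and CYP71B24 by 2.31, to 6.90 ± 0.32 in camta1/2/3 against 4.59 ± 0.06 in WT. Of 51 UDP-glycosyltransferases 7 rose (13.7%) and 8 fell (15.7%), with UGT73D1 (AT3G53150) at 6.51, 6.55 and 6.44 in camta1/2/3, against 4.24, 3.94 and 3.94 in WT (2.46, SE 0.18, adjusted p = 3.5e-07). Of 13 glutathione S-transferases 4 fell (30.8%) and none rose. The falls of the last 2 families include UF3GT, UGT78D1, UGT78D2, UGT74B1 and GSTU20. The flavonoid and glucosinolate lists below count these genes again. The counts for glycosyltransferases were 9 to 14 called in all when 1 array was left out, the fewest without WT replicate 3, and those for P450 genes were 4 to 8, the fewest without camta1/2/3 replicate 3.

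In the flavonoid list 5 of 8 measured genes fell (62.5%, against 12.4% of all probe sets and 10.9% of named genes) and none rose, with a median difference of -1.31. Flavonoids are the phenolic pigments and sunscreens of leaves, and anthocyanins are their red branch. DFR (AT5G42800), whose enzyme commits the pathway to anthocyanins, was at 4.39, 4.91 and 5.28 in camta1/2/3, against 7.32, 7.97 and 7.06 in WT (-2.59, SE 0.36, adjusted p = 8.52e-05). UF3GT (AT5G54060), which adds a xylose to anthocyanins, was at 4.80, 4.65 and 4.62 in camta1/2/3, with 6.38, 7.53 and 6.75 in WT (-2.20, SE 0.38, adjusted p = 0.000545). UGT78D1, the flavonol rhamnosyltransferase gene, fell by 1.74, to 6.19 ± 0.44 in camta1/2/3 against 7.93 ± 0.03 in WT. UGT78D2, the glucosyltransferase gene, fell by 1.20 and the chalcone isomerase-like gene CHIL by 1.42, while BAN, a seed coat gene, stood at 2.25 ± 0.02 in camta1/2/3 and 2.26 ± 0.00 in WT. The same number, 5, was called without any 1 array, in the fit of 6 arrays and with the actin covariate.

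Glucosinolates, the mustard oil precursors made from methionine in the aliphatic branch, gave 3 falls (50%, against 10.9% of named genes) and 1 rise among 6 measured genes. GSTU20 (AT1G78370), a glutathione S-transferase of the core pathway, was at 7.92, 7.40 and 8.40 in camta1/2/3, against 10.88, 10.63 and 10.38 in WT (-2.72, SE 0.34, adjusted p = 4.02e-05). BCAT4 (AT3G19710), which removes the amino group of methionine in the opening step, was at 8.93, 8.55 and 9.69 in camta1/2/3, with 11.09, 10.93 and 10.94 in WT (-1.93, SE 0.24, adjusted p = 4.33e-05). The transporter gene GTR2 went the other way, at 8.55 ± 0.12 in camta1/2/3 against 7.27 ± 0.11 in WT (1.28, SE 0.30, adjusted p = 0.00481). Its relative GTR1 was at 6.47 ± 0.39 in camta1/2/3 and 7.20 ± 0.43 in WT (adjusted p = 0.062). UGT74B1 fell by 0.54, a call lost without any 1 of 4 arrays (replicates 2 and 3 of WT, replicates 1 and 2 of camta1/2/3; adjusted p up to 0.116).

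In chlorophyll synthesis 5 of 8 measured genes fell (62.5%, against 10.9% of named genes) and none rose, with a median of -0.68. Among all probe sets at a mean level between 8 and 10, where this list averaged, 25.5% were called lower. CHLI2 (AT5G45930), a subunit of the magnesium chelatase that starts the chlorophyll branch, was at 8.03, 7.0 and 7.72 in camta1/2/3, against 8.89, 8.86 and 9.14 in WT (-1.38, SE 0.25, adjusted p = 0.000823). GSA1 (AT5G63570), which makes the first committed precursor, was at 7.88, 7.54 and 8.05 in camta1/2/3, with 8.71, 8.64 and 9.01 in WT (-0.96, SE 0.13, adjusted p = 7.99e-05). HEME2, CHLM and HEMB1 fell by 0.73, 0.66 and 0.62, the call on CHLM being lost in 4 of the 6 fits without 1 array (adjusted p up to 0.072). LIL3:1, PORB and HEMA2 did not pass, and camta1/2/3 replicate 2 was the lowest mutant array in the first 2 of these.

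Photosynthesis genes encoded in the nucleus were lower by less. Of 8 genes of the photosystems, antenna and ATP synthase 4 fell (50%, against 10.9% of named genes) and none rose, with a median of -0.47. Among all probe sets at a mean level of 10 or more, where this list averaged, 26.5% were called lower. PSAN (AT5G64040), a subunit of photosystem I, was at 12.45, 11.89 and 12.03 in camta1/2/3, against 12.81, 12.84 and 12.84 in WT (-0.71, SE 0.17, adjusted p = 0.00598). PSBY, LHCB4.2 and ATPC1 fell by 0.56, 0.49 and 0.49, each with a call that leaving out single arrays could end. Of the 4 only PSAN was still called without WT replicate 1, without camta1/2/3 replicate 2 or without camta1/2/3 replicate 3, 2 were without WT replicate 2 or WT replicate 3, and none was in limma's fit of 6 arrays (3 at an unadjusted p under 0.05). In the Calvin cycle SBPASE (AT3G55800), a bisphosphatase gene, was at 11.01, 10.84 and 11.08 in camta1/2/3, with 11.93, 11.78 and 12.12 in WT (-0.97, SE 0.15, adjusted p = 0.000228), and was called in every alternative fit. The Rubisco activase gene RCA was at 13.38 ± 0.18 in camta1/2/3 and 13.66 ± 0.17 in WT (adjusted p = 0.167).

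The chloroplast's own genes could be set beside these. None of 69 measured plastid-encoded genes was called by limma, 1 had an unadjusted p under 0.05, and the lowest adjusted p was 0.148. Their median difference was -0.18, and 48 of 69 were lower in the mutant. Between 0 and 1 of them were called without 1 array, and 2 with the actin covariate. Many had a wide SE, such as 0.679 for petD (difference -1.46) and 0.925 for psaA (difference -1.003), while that of ndhI was 0.125. A fall as large as that of PSAN could therefore go uncalled in many of them. The leaf origin of the samples showed in the levels of the nuclear photosystem genes, which averaged 11.2 to 11.6 on camta1/2/3 arrays and 11.8 to 11.9 on WT arrays.

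Genes of the cell wall and of cell expansion leaned downwards, with 8 of 17 measured members lower (47.1%, against 10.9% of named genes), none higher, and a median of -0.57. After TBL26, described above, the largest falls were in expansin-type genes, whose proteins loosen walls. EXLA1 (AT3G45970) was at 4.96, 5.32 and 5.05 in camta1/2/3, against 7.23, 6.48 and 6.46 in WT (-1.61, SE 0.38, adjusted p = 0.00514). EXPB1 (AT2G20750) was at 4.20, 4.03 and 4.03 in camta1/2/3, with 5.20, 5.29 and 5.87 in WT (-1.37, SE 0.17, adjusted p = 4.08e-05). EXPB3, EXLB1 and EXPA4 fell by 1.05, 0.96 and 0.87, the call on EXLB1 being lost without camta1/2/3 replicate 2 (adjusted p = 0.056). By contrast, EXPA8, the classic growth expansin, was at 7.42 ± 0.51 in camta1/2/3 and 7.87 ± 0.65 in WT (adjusted p = 0.559). Over all 19 expansins 6 fell (31.6%) and none rose. When 1 array was left out, 5 to 8 members of the list were called, with 5 in the fit without camta1/2/3 replicate 2.

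Xyloglucan enzymes, which cut and rejoin the wall's tethers, gave 2 falls among 10 genes (20.0% called, as against 20.5% of named genes), the larger in XTH32 (AT2G36870) at 7.05 ± 0.18 in camta1/2/3 against 8.41 ± 0.13 in WT (-1.36, SE 0.23, adjusted p = 0.000438). Of 24 members of the trichome birefringence-like family 4 fell, TBL26 and TBL25 among them, and 2 rose, so that 25% were called, near the share of all named genes. AT2G31110, annotated as TBL40, was at 8.10, 7.65 and 7.88 in camta1/2/3, against 5.91, 5.70 and 5.55 in WT (2.16, SE 0.23, adjusted p = 8.44e-06). Pectin methylesterase genes, which stiffen or loosen pectin, also went both ways: PMEPCRF rose by 1.65 and PME61 fell by 0.76.

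Among 9 tubulin and tubulin cofactor genes 4 fell (44.4%, against 10.9% of named genes) and none rose. TUB5 (AT1G20010) was at 7.88, 7.86 and 8.05 in camta1/2/3, against 9.14, 8.67 and 9.14 in WT (-1.05, SE 0.24, adjusted p = 0.0045), and TUB6 fell by 0.76 (adjusted p = 0.00313). The mitotic Aurora kinase genes were lower too. AUR1 was at 5.19 ± 0.24 in camta1/2/3 against 6.17 ± 0.35 in WT, and AUR2 at 5.40 ± 0.12 in camta1/2/3 against 6.22 ± 0.04 in WT. Of 5 genes of ribosome biogenesis 1 fell (20.0% called, as against 20.5% of named genes). AT3G15460 fell by 0.95, a call lost without WT replicate 3 (adjusted p = 0.0867) and without camta1/2/3 replicate 2 (adjusted p = 0.0812).

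Cold-regulated genes are the other known face of the CAMTA family, and COR15A stood out among them in plants that had seen no cold. COR15A (AT2G42540), whose product protects chloroplast membranes during freezing, was at 4.55, 5.25 and 5.43 in camta1/2/3, against 9.81, 8.85 and 8.33 in WT. It was 15.1-fold lower in the mutant (-3.92, SE 0.56, adjusted p = 0.000119). Its tandem copy COR15B (AT2G42530) was at 8.42, 7.0 and 8.20 in camta1/2/3, with 9.77, 8.81 and 9.03 in WT (-1.33, SE 0.45, adjusted p = 0.0442), a call lost without 5 of the 6 arrays in turn (adjusted p up to 0.204). The dehydrin genes COR47 (adjusted p = 0.216) and LTI30 (adjusted p = 0.736) and the clock-linked COR27 did not pass, with differences of -0.84, -0.54 and 0.00. LTI30 varied within both genotypes, from 5.99 to 8.44 in camta1/2/3 and from 6.12 to 9.03 in WT.

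**Figure D3:**
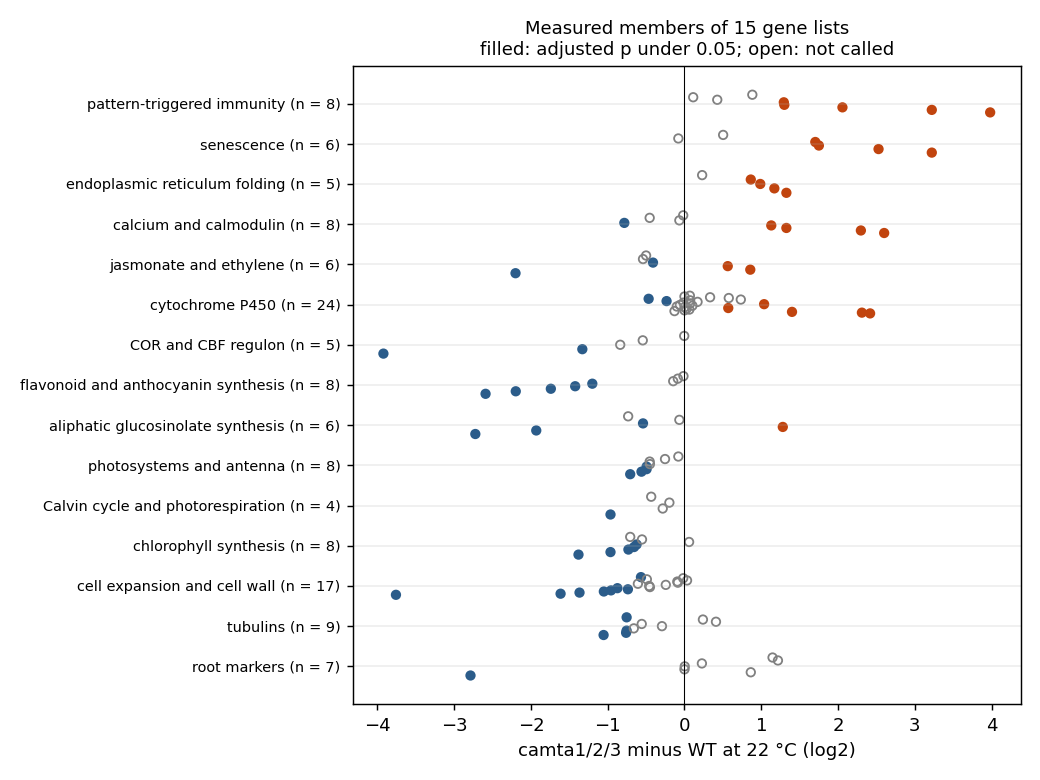
Differences of camta1/2/3 from WT at 22 °C (log2, horizontal axis) for the measured members of 15 gene lists and families, 1 row per list with its number of members. Filled points were called (orange higher, blue lower) and open points were not. No blue point appears in the rows of immunity, senescence and folding and no orange one in those of flavonoids, photosystems, chlorophyll and the cell wall.

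Markers of other organs were checked, since defence and growth genes differ between organs. Of 7 root markers 1 was called (14.3%, as against 20.5% of named genes). JAL23, a jacalin-related lectin gene, was at 3.74 ± 0.41 in camta1/2/3 against 6.53 ± 0.72 in WT (-2.79, SE 0.29, adjusted p = 8.74e-06). The mean level of the list was 5.28 to 5.68 on camta1/2/3 arrays and 4.88 to 5.92 on WT arrays, and the root hair expansins EXPA7 and EXPA18 stood at 2.17 and 2.24 in both. Without WT replicate 1 a further 3, JAL33, JAL34 and PYK10, were called higher, by 1.87, 1.76 and 1.13. None of 4 flower, pollen and seed markers was called by limma (0 at an unadjusted p under 0.05), and their mean level was 3.62 to 4.07 on camta1/2/3 arrays and 3.65 to 3.70 on WT arrays. AMS and ANX2, which mark anthers and pollen, were near the floor in both groups. The part of such organs in the results was otherwise not tested.

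Some called genes were neighbours. Reading the measured named genes in chromosome order, the longest unbroken runs called in 1 direction held 4 genes, 3 runs of higher and 3 of lower genes. Runs of 1 gene were the most common, 967 of higher and 1125 of lower genes. Whether the longer runs exceed what the shares of calls alone would give was not tested. Genes without a named probe set were skipped and can lie between these neighbours. On chromosome 1 AT1G72890, AT1G72900, AT1G72920 and AT1G72940 all rose. AT1G72920 was at 7.63, 6.96 and 7.50 in camta1/2/3, against 4.62, 4.41 and 4.73 in WT (2.78, SE 0.27, adjusted p = 5.21e-06), and the others rose by 1.81 to 2.27. Their sequences were not compared here, so shared probe signal between neighbours was not tested. On chromosome 3 AT3G48640, AT3G48650, AT3G48710 and the sugar transporter gene SWEET11 rose by 0.64 to 4.27. A run on chromosome 5 held CHLI2 and its neighbours AT5G45920, AT5G45950 and AT5G45960, which fell by 0.53 to 1.47.

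The double mutants show how far the loss of 2 factors goes. Their comparisons with WT share the 3 WT arrays with that of camta1/2/3, so the values are set side by side and no overlap was tested. Against WT, 2301 probe sets (10.1%) were called in camta2/3, 502 (2.21%) in camta1/3 and 37 (0.163%) in camta1/2. For the 1176 probe sets at least 2-fold higher in camta1/2/3, the median difference from WT was 1.56 in camta1/2/3, 1.03 in camta2/3, 0.74 in camta1/3 and 0.41 in camta1/2. For the 973 at least 2-fold lower it was -1.32 in camta1/2/3, -0.89 in camta2/3, -0.44 in camta1/3 and -0.34 in camta1/2. Compared directly, camta1/2/3 differed from camta2/3 in 326 probe sets (1.43%), from camta1/3 in 2177 (9.57%) and from camta1/2 in 3533 (15.5%).

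The order of the doubles was shared by most strong changes. In 952 of the 1176 higher probe sets (81.0%) the mean was highest in camta2/3, then camta1/3, then camta1/2, an order found in 16.6% of all probe sets. In 686 of the 973 lower ones (70.5%) the means ran the opposite way, as in 17.4% of all. CCOAMT averaged 8.55 in camta1/2/3, 6.82 in camta2/3, 5.67 in camta1/3, 4.04 in camta1/2 and 3.36 in WT. TBL26 averaged 2.30 in camta1/2/3, 2.67 in camta2/3, 4.34 in camta1/3, 5.25 in camta1/2 and 6.06 in WT, so camta2/3 was already close to the floor. COR15A averaged 5.08 in camta1/2/3, 6.24 in camta2/3, 7.76 in camta1/3, 7.99 in camta1/2 and 9.0 in WT.

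A smaller set was picked as the genes farthest from every double mutant. A gap between camta1/2/3 and the doubles was thus given by the choice. Of the 1176 probe sets at least 2-fold higher in camta1/2/3, 144 (12.2%) were also called higher than in all 3 doubles. Of the 973 at least 2-fold lower, 77 (7.91%) were also called lower than in all 3. In the picked risers the doubles averaged nearer to WT than to camta1/2/3. PDF1.4 (AT1G19610), a defensin-type gene, was at 8.05, 8.23 and 8.12 in camta1/2/3 and averaged 5.97 in camta2/3, 4.92 in camta1/3, 4.95 in camta1/2 and 4.99 in WT. AT1G26250 was at 5.31, 5.10 and 4.84 in camta1/2/3 and averaged 2.17 to 2.33 in the doubles and 2.20 in WT. AT4G39675 was at 4.85, 5.11 and 4.42 in camta1/2/3 and near 2.6 in all other groups at 22 °C, including WT, whose 3 arrays all read 2.59. WES1 averaged 6.88 in camta1/2/3, 4.92 in camta2/3, 4.57 in camta1/3, 4.01 in camta1/2 and 4.37 in WT. WRKY22 had the same shape, at 4.14 in camta1/2/3, 2.89 in camta2/3, 2.84 in camta1/3, 2.85 in camta1/2 and 2.85 in WT. AT1G31690 and AT2G39850, which fell, averaged 3.17 and 3.71 in camta1/2/3 and between 5.29 and 6.88 in the doubles. AT2G39850 averaged 7.06 in WT. Both belong to the 15 largest falls, and in 14 of those the means were ordered through all genotypes at 22 °C.

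**Figure D4:**
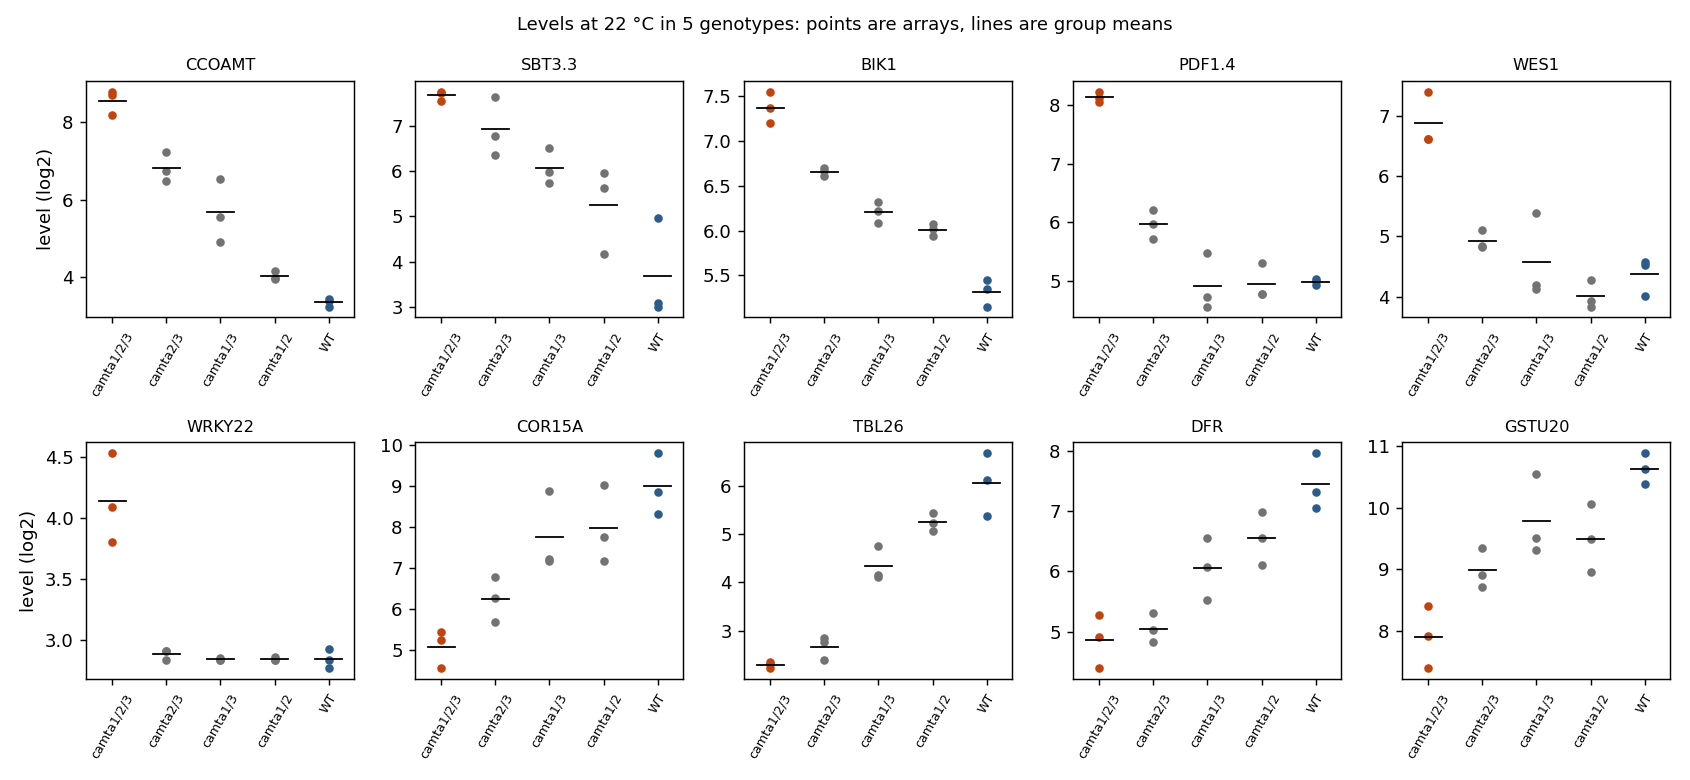
Log2 levels of 10 genes on the arrays at 22 °C in camta1/2/3, camta2/3, camta1/3, camta1/2 and WT, from left to right. Points are arrays and lines group means. CCOAMT, SBT3.3, BIK1, COR15A, TBL26 and DFR change stepwise with genotype, whereas PDF1.4, WES1 and WRKY22 stand apart mainly in camta1/2/3. PDF1.4 was picked for its distance from every double mutant.

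The same genotypes after 24 h at 4 °C were on 6 other arrays. These gave no level to the comparison at 22 °C but shared its estimate of the spread, and a fit of the 15 arrays at 22 °C without them called 5503 probe sets at 22 °C. There 4800 probe sets (21.1%) were called, 2394 higher (10.5%) and 2406 lower (10.6%). Of the 1176 probe sets at least 2-fold higher at 22 °C, 913 (77.6%) were also called higher at 4 °C and 2 were called lower. Of the 973 at least 2-fold lower, 641 (65.9%) were called lower again and 3 higher. Across all 22746 probe sets the differences at the 2 temperatures had a Pearson correlation of 0.78, given as a description across probe sets normalized together. All of the 15 largest rises and 12 of the 15 largest falls were called again, in the same direction. The exceptions were COR15A, AT1G07440 and AT4G17470.

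The lists behaved alike for immunity, with 5 of 8 called higher at 4 °C, for WRKY factors, with 4 of 7, and for flavonoids, with 6 of 8 called lower. Over all probe sets 10.5% were called higher and 10.6% lower at 4 °C. BIK1 differed by 2.38 at 4 °C and by 2.06 at 22 °C. For protein folding 0 of 5 genes were called at 4 °C by limma (0 at an unadjusted p under 0.05), with a median of 0.34, but no member's difference between the temperatures passed, so the list is not shown to respond otherwise in the cold. In the COR and CBF list 0 of 5 were called at 4 °C by limma (0 at an unadjusted p under 0.05).

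A direct test of whether the genotype difference changed with temperature called 447 probe sets (1.97%), 147 of them among the 2521 higher and 148 among the 2821 lower at 22 °C. The difference was nearer to 0 at 4 °C or had crossed it in 108 of the 147 and in 137 of the 148, and it was farther from 0 in 39 and 11. Both sets were chosen by the difference at 22 °C, which is part of that test and favours values nearer to 0 at 4 °C. COR15A is the plainest case: its difference of -3.92 at 22 °C was 0.23 at 4 °C (interaction adjusted p = 0.013), where camta1/2/3 averaged 12.30 and WT 12.07. AT1G07440 fell by 3.30 at 22 °C and differed by -0.18 at 4 °C. PDF1.4 and AT4G39675, both far from every double mutant at 22 °C, differed by 0.71 and 0.13 at 4 °C. EXLA1 differed by -4.05 at 4 °C and by -1.61 at 22 °C.

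**Figure D5:**
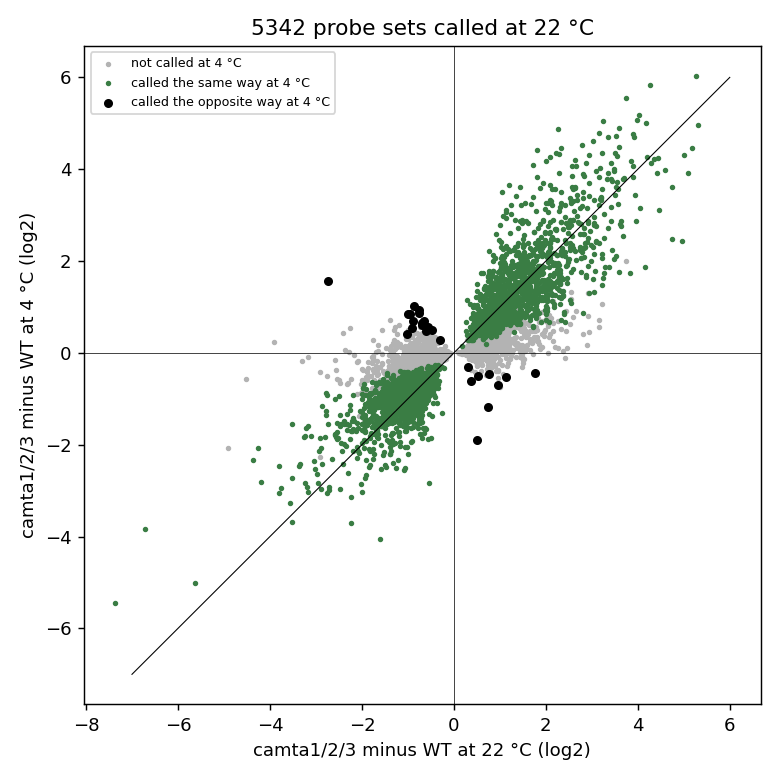
Each point is 1 of the 5342 probe sets called at 22 °C, with camta1/2/3 minus WT at 22 °C on the horizontal axis and at 4 °C on the vertical axis (log2). Green points were called the same way at 4 °C, grey points were not called there and black points were called the opposite way (9 of those higher and 16 of those lower at 22 °C). Most points lie where both differences have the same sign, and the diagonal marks equal differences.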

How the data were processed

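The authors deposited 1 table of log2 values for 21 arrays. GCRMA, which corrects background and normalizes arrays, and limma are named, per the submitters' processing notes, with versions not given in the sources used here. RNA was extracted, amplified and labelled with biotin, per the labels' protocols. The deposited log2 values were used unchanged. Of 22810 probe sets 64 controls were left out. Genes were named from a probe annotation that lists 14016 of the probe sets, of which 13513 had 1 gene, and RefSeq (TAIR10.1) matched 13436; the other 8730 were tested unnamed. A gene with several probe sets is given by the one with the highest mean.

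Means of the 7 groups were estimated from all 21 arrays in 1 fit by limma 3.58.1 (lmFit and eBayes, R 4.3.3; 14 residual and 0.954 prior degrees of freedom), two-sided, and checked on simulated data. The number of arrays, 3 per group, limits the precision. Members, 29 gene lists and 38 families were chosen with earlier results of these data known; of 898 list loci 124 had a probe set named here. Named genes were the 15 largest rises and 15 largest falls without overlap, up to 5 called members of each list or 3 of each family, 8 at the highest levels and 6 farthest from all double mutants; other list members are named to complete a list, and the genes of runs of neighbours were chosen after their values were seen. A planned description of promoter motifs was not run. Same-numbered replicates were not treated as pairs. Alternatives are given in the closing section.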

Additional observations from a re-analysis of the deposited data

Results flagged for a closer look

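For 11 of the genes described, the difference between camta1/2/3 and WT was itself different at the 2 temperatures (limma interaction test, adjusted p under 0.05). The values here are the difference at 4 °C less that at 22 °C, on the log2 scale, with 3 arrays per group, and they were adjusted over all 22746 probe sets, of which 1.97% passed.

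Of genes lower in camta1/2/3 at 22 °C, COR15A had a value of 4.15, AT1G07440 of 3.11, JAL23 of 1.92, EXPB1 of 1.52, EXPB3 of 1.35 and THI2.1 of 0.62, all smaller falls or none at 4 °C. EXLA1, with -2.44, was lower still at 4 °C. Of genes higher at 22 °C, CML37 had a value of 1.82, a larger rise at 4 °C. PDF1.4 had -2.44, AT4G39675 -2.07 and AT1G26250 -1.22, all smaller rises at 4 °C. COR15A averaged 12.30 in camta1/2/3 and 12.07 in WT at 4 °C, against 5.08 in camta1/2/3 and 9.0 in WT at 22 °C.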

How the results depend on the processing

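The 5342 calls between camta1/2/3 and WT at 22 °C became 3252 with the 6 arrays alone, 2626 with 1 probe set per named gene, 3443 at an adjusted p under 0.01 and 2149 when a 2-fold change was also asked for; leaving out 1 array gave 4198 to 5134. Quantile normalization (5562), centring on the median (5532), a mean level over 4 (5182), trended (5364) or robust (5307) variance, array weights (6723), the 15 arrays at 22 °C (5503) and the actin covariate (4565) stayed within 1.5 times. The share of calls that were higher, 47.2%, lay between 44.4% and 54.7%, and it passed to the other side of an even split at an adjusted p under 0.01 (50.01%), with a 2-fold change (54.7%), without WT replicate 3 (50.3%) and without camta1/2/3 replicate 2 (52.3%); without 1 array it was 45.4% to 52.3%. Between camta1/2/3 and camta2/3, 326 calls became 491 with quantile normalization, and at 4 °C 4800 became 2692 with the actin covariate. No called gene examined changed sign in any of these fits. Of 410 genes examined 138 were called, and 91 of these kept the call in all 17 alternative fits. The replicate number as a block gave 5710 calls. Residuals of same-numbered camta1/2/3 and WT arrays correlated at 0.14, 0.15 and 0.058. By residuals, 16 of 21 arrays were closest, among arrays of other groups, to one of their own number. The data thus point to something shared by number, which the main fit leaves out. With 1 correlation under 0.1 and nothing in the labels about what a number shares, the numbers were not taken as pairs. The description of promoter motifs was not run, since no promoter sequences were used here. With no detection calls, differences from the floor are lower bounds, and the 8730 unlisted probe sets hold genes that the lists could not count.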
